A study of Mus musculus with 6 samples.

Results

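Caveolae are flask-shaped pits of the plasma membrane, and the genes described here encode their coat. The caveolins (Cav1, Cav2 and the muscle form Cav3) are membrane-inserted proteins that bind cholesterol. The cavins (Cavin1 to Cavin4) are cytoplasmic proteins that assemble around them, and Cavin1 is required for caveolae to form. Caveolae are most abundant in adipocytes, endothelium, muscle and fibroblasts, where they take part in membrane buffering, lipid handling and signalling. The genes Cav1, Cav2, Cavin1 (also Ptrf), Cavin2 (also Sdpr) and Cavin3 (also Prkcdbp) were taken by name, as 5 of the 42450 genes of the deposited table. They were chosen by their levels and fold changes between Srrm2+/- and WT cells, which were known from earlier work on these libraries, so those values are given as a description, without a test.

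Total RNA of mouse embryonic stem cells (mESC) was sequenced from 3 cultures of the parental male line E14tg2a.4 (WT) and 3 cultures of a gene-trap derivative with a truncation in 1 allele of Srrm2 (Srrm2+/-). SRRM2 is a splicing factor that organises nuclear speckles. Both lines were grown on gelatine with leukemia inhibitory factor (LIF) and moved to serum-free medium with LIF before collection. The Srrm2+/- line is 1 clone, and its stocks were frozen at lower passage numbers than those of WT, so genotype, clone and passage cannot be told apart in this comparison. The cultures of a line came from 3 separately frozen batches. Libraries held between 54151532 and 58499961 estimated counts in WT and between 61023103 and 69933465 in Srrm2+/-. Every Srrm2+/- library was thus deeper than any WT library. Counts were scaled with the TMM method to CPM, the counts of a gene per 1000000 counts of its library. Srrm2 itself (ENSMUSG00000039218) was at 95.7 ± 3.94 CPM in WT cells and 59.3 ± 3.02 CPM in Srrm2+/- (SD, n = 3 each), and the log2 fold change was -0.69 (± 0.05 SE, adjusted p 2.38e-05 in edgeR). Over the 18905 genes that passed the filter, 25.3% were called at an adjusted p under 0.05, 13.6% higher and 11.7% lower in Srrm2+/-.

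Cav1 (ENSMUSG00000007655, GRCm38 chromosome 6, 17306335 to 17341452, plus strand) and Cav2 (ENSMUSG00000000058, chromosome 6, 17281185 to 17289115, plus strand) lie side by side. Cavin1 (ENSMUSG00000004044) lies on chromosome 11, 100956733 to 100970887, on the minus strand. Cavin2 (ENSMUSG00000045954) is found on chromosome 1, 51289126 to 51302960, on the plus strand, and Cavin3 (ENSMUSG00000037060) on chromosome 7, 105480083 to 105482300, on the minus strand. All are annotated as protein coding. The promoters of the linked caveolin pair, of the most abundant cavin and of the cavin that was not detected are shown from RefSeq (GRCm38.p6), from 250 bases before the first annotated start site to 50 bases from it on, to let their sequences be set beside the values below. The Cavin1 window lies wholly inside the gene span given above, since its RefSeq start lies within that span. Capitals mark matches, on either strand, to the motifs searched.
Cav1, chr6:17306085-17306384, plus strand: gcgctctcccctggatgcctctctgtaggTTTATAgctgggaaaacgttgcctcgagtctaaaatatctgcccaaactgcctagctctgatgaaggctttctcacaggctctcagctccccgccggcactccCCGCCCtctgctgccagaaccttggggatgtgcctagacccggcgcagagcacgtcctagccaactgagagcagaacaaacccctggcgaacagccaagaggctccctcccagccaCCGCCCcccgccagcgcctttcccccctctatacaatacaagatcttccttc
Cav2, chr6:17280935-17281234, plus strand: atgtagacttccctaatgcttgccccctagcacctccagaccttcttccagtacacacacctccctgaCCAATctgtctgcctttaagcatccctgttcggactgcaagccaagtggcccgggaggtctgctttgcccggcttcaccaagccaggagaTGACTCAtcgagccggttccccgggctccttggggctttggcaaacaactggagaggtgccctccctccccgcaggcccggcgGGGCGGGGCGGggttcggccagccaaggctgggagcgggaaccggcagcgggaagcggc
Cavin1, chr11:100970568-100970867, minus strand: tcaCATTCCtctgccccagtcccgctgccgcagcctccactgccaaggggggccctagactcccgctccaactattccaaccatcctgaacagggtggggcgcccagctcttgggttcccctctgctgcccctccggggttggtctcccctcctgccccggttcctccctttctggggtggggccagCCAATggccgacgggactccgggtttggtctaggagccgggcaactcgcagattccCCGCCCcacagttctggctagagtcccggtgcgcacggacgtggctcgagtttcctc
Cavin2, chr1:51288876-51289175, plus strand: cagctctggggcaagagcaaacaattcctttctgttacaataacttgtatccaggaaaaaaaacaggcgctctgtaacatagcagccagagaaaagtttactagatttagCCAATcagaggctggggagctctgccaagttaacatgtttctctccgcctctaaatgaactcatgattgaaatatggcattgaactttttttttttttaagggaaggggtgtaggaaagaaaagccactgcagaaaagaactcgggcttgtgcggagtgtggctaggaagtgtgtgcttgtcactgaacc

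The search covered both strands for 6 motifs. Cav2 held an AP-1 motif (TGANTCA) 92 bases upstream of the start, a motif found in 7.81% of all 32851 promoters of the same length. The Cavin1 window held a TEAD motif (GGAATG) 247 bases upstream of its RefSeq start, found in 14.7% of promoters. Those bases lie inside the gene span given above. GC boxes (GGGCGG) were present in Cav1, Cav2 and Cavin1 and in 35.7% of all promoters, but no match lay in the Cavin2 window. The GC boxes of Cav2 overlap each other. The CCAAT motif (its name gives its letters) had a match in Cav2, Cavin1 and Cavin2 and in 37.4% of all promoters. A TATA motif (TATAAA) 221 bases upstream of Cav1 lay on the reverse strand and was shared with 13.6% of promoters. The CArG box, a motif bound by SRF and found in 1.63% of promoters, had no match in the windows of these 4 genes, nor in that of a second annotated Cav1 start. The GC content was 59.3% for Cav1, 64.3% for Cav2, 66.7% for Cavin1 and 43.3% for Cavin2, beside a median of 52.7% over all promoters.

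The 5 genes differed widely in level, and 4 of them were higher in every Srrm2+/- library than in any WT library. Cavin1 was well expressed in both lines, Cav1 was low, Cav2 and Cavin3 were near the limit of detection in WT, and Cavin2 was not detected beyond 2 counts. In these bulk samples, more cells with the genes on and more RNA per cell cannot be told apart. The 4 genes whose groups did not overlap stand beside 21.4% of all genes tested for which Srrm2+/- lay wholly above WT. Nothing is read from this count, since the genes were picked with the contrast known. For the same reason no test call is given for them, and they are set beside 13.6% of genes tested that were called higher and 4.3% that also passed a log2 fold limit of 1 in that direction. The low-count filter (at least 0.167 CPM in 3 libraries) used these values as well. Cavin2 did not pass it, Cav2 passed through its Srrm2+/- libraries alone, with 0 WT libraries over the limit, and Cavin3, with 1 WT library over it, also needed its Srrm2+/- libraries to pass.

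Cav1, the caveolin needed for caveolae outside muscle, had 43, 15 and 18 counts in WT replicates 1 to 3 and 155, 165 and 130 counts in those of Srrm2+/-. In CPM these were 0.775, 0.259 and 0.336 in WT and 2.24, 2.39 and 2.11 in Srrm2+/-. The Srrm2+/- libraries were close together, while WT replicate 1 stood above the other WT libraries and still below every Srrm2+/- library. The log2 fold change was 2.30 (SE 0.34), with group means of 0.457 ± 0.278 and 2.25 ± 0.143 CPM (SD, n = 3 each). Without WT replicate 1 it was 2.91 (SE 0.23). The variance of the WT counts was 9.49 times that of counting error alone, against 0.593 times in Srrm2+/-.

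Cav2 is the partner that forms hetero-oligomers with CAV1. It had 9, 3 and 3 counts in the WT libraries and 55, 39 and 30 counts in the Srrm2+/- libraries. The corresponding levels were 0.162, 0.0519 and 0.0560 CPM in WT, and 0.795, 0.566 and 0.486 CPM in Srrm2+/-. As with Cav1, WT replicate 1 was the highest WT library and the groups did not overlap. The log2 fold change was 2.75 (SE 0.46). Without WT replicate 1 it was 3.47 (SE 0.47), with 3 counts in each WT library left, the floor used here. The pooled counts were 15 in WT and 124 in Srrm2+/-. Each divided by the summed TMM-scaled library sizes of its line, they gave a ratio of 6.90 (Srrm2+/- over WT). The same ratio was 4.94 for Cav1.

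Cavin1, which encodes the scaffold of the cavin coat, had by far the largest counts among the 5 genes. It was at 22.0, 22.9 and 23.0 CPM in WT cells and at 43.7, 42.6 and 46.3 CPM in Srrm2+/-. Its spread within a line was small, with a coefficient of variation of 2.37% in WT and 4.32% in Srrm2+/-, against 60.9% and 6.36% for Cav1. The means were 22.7 ± 0.536 and 44.2 ± 1.91 CPM (SD, n = 3 each), and the log2 fold change was 0.96 (SE 0.05). Under the 14 alternative settings this value stayed between 0.93 and 0.99.

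Cavin3, a cavin that binds protein kinase C delta, had 5, 5 and 11 counts in WT cells and 29, 38 and 37 counts in Srrm2+/-. These corresponded to 0.0901, 0.0865 and 0.205 CPM in WT cells and 0.419, 0.551 and 0.600 CPM in Srrm2+/-. Here WT replicate 3, not replicate 1, was the highest WT library. The log2 fold change was 2.03 (SE 0.41), and 2.54 (SE 0.44) without WT replicate 3. The ratio of pooled counts, scaled by library size as for Cav2, was 4.13.

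Cavin2, which shapes caveolar membranes in endothelium and lung, had 2 counts in WT replicate 1 and 0 counts in the other 5 libraries. A floor of 3 counts corresponds to 0.0434 to 0.0560 CPM per library, so levels below that were not detectable at this depth and no fold is given. All values of the 5 genes are set side by side in the plot of CPM by library.

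**Figure D1:**
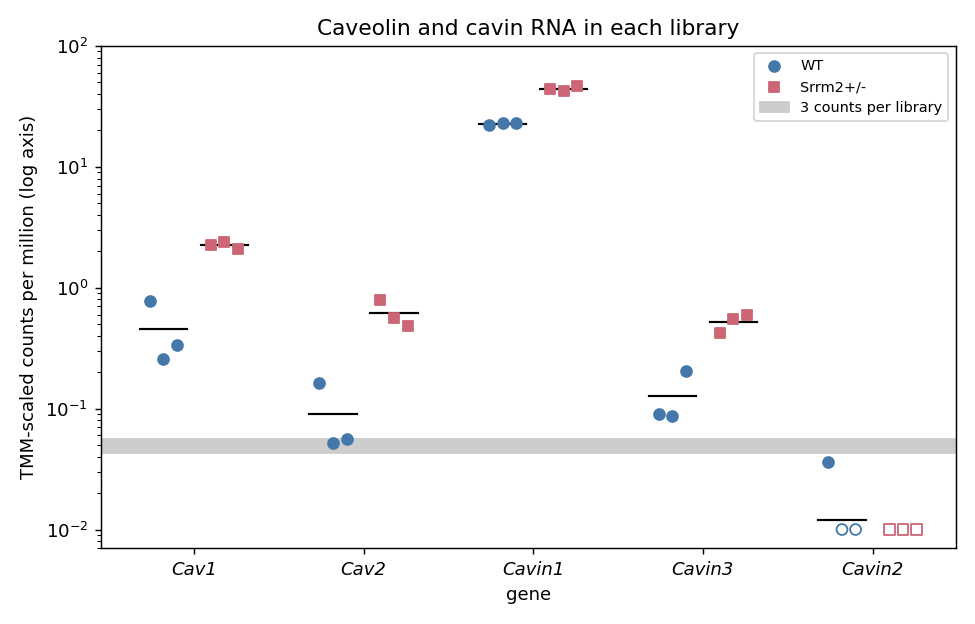
TMM-scaled CPM (log axis) of the caveolin and cavin genes in the 3 WT (circles) and 3 Srrm2+/- (squares) libraries, with black lines at group means, open symbols for libraries with 0 counts drawn at the bottom, and a grey band at 3 counts per library. Cav1, Cav2, Cavin1 and Cavin3 sat higher in all 3 Srrm2+/- libraries than in any WT library, while Cavin2 had counts only in WT replicate 1.

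Shared sequence and overlapping genes bear on the smaller counts. None (0%) of the 31-base words of the annotated Cav1, Cav2, Cavin1 and Cavin2 transcripts occurred in transcripts of another gene. For Cavin3, 21.1% of its words also occurred in Gm45667, an unverified transcript model on the opposite strand, whose level was not analysed here, so part of the Cavin3 counts cannot be assigned with certainty. An antisense gene, Gm15581, spans the Cav1 and Cav2 region. It had 4, 6 and 1 counts in WT cells and 3, 2 and 4 counts in Srrm2+/-. These counts lie around the floor of 3 used here and Gm15581 was not tested, so nothing is read from the overlap of its groups. Another antisense gene, 9330175M20Rik, overlaps Cavin2. It had 1, 2 and 0 counts in WT cells and 4, 1 and 1 counts in Srrm2+/-.

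Per length, the order of the levels was the same in both lines at its upper end. With CPM divided by the median length of protein-coding transcripts, Cavin1 led at 6.49 ± 0.154 CPM per kilobase in WT cells and 12.7 ± 0.547 in Srrm2+/- (SD, n = 3 each). Cav1 followed at 0.745 ± 0.454 and 3.66 ± 0.233. Cav2 came next at 0.0924 ± 0.0642 and 0.632 ± 0.165, then Cavin3 at 0.0766 ± 0.0407 and 0.315 ± 0.0562 CPM per kilobase. The libraries of Cav2 and Cavin3 overlapped in WT and did not in Srrm2+/-. Many annotated Cav1 and Cav2 transcripts are short, and with the longest transcript in place of the median Cav1 was at 0.166 and 0.818 CPM per kilobase in WT and Srrm2+/-, with Cavin3 ahead of Cav2 in both lines. Among the 14704 protein-coding genes tested, Cavin1 in WT was at the 51.9th percentile of level per kilobase, and Cav1 at the 24.4th.

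The make-up of the set restates the same levels as shares and ratios, and is not a separate result. Cavin1 held 95.4%, 98.3% and 97.5% of the counts of the 5 genes in WT and 92.7%, 92.4% and 93.6% in Srrm2+/-. Per kilobase, the ratio of Cavin1 to the sum of Cav1 and Cav2 was 4.41, 13.8 and 10.9 in the WT libraries and 2.80, 2.72 and 3.37 in the Srrm2+/- libraries. The groups did not overlap, although WT replicate 1 lay closest to Srrm2+/-. With longest transcripts as lengths the Srrm2+/- mean was 12.2 in place of 2.96, so the size of the ratio depends on the transcript length used. Within the caveolins, Cav1 held 82.7%, 83.3% and 85.7% of the counts in WT cells and 73.8%, 80.9% and 81.3% in Srrm2+/-.

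The other caveola genes were then described from a list of names. This list, like the lists below, was drawn up with earlier results of these data known. Of 10 accessory genes, 9 were tested, and 5 were called higher and 1 lower in Srrm2+/-, beside 13.6% and 11.7% of all genes tested. Their median log2 fold change was 0.33, and that of all genes tested was -0.00254. Only 1 of the 6 passed a limit of 1 on the absolute log2 fold change, which 6.1% of all genes tested did.

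The largest rise was that of Ehd2, which encodes the ATPase that sits at the neck of caveolae and restrains their mobility. Ehd2 (ENSMUSG00000074364) was at 0.685, 0.709 and 0.541 CPM in WT cells and at 2.23, 2.52 and 2.93 CPM in Srrm2+/-. All Srrm2+/- libraries were above the WT libraries, at a log2 fold change of 1.98 (± 0.19 SE, adjusted p 0.000117 in edgeR). The related genes Ehd3, Ehd4 and Ehd1 rose less. Ehd4 rose from 19.9 ± 0.461 to 26.9 ± 0.886 CPM (log2 fold change 0.43 ± 0.05 SE, adjusted p 0.000328 in edgeR). Ehd3 had a log2 fold change of 0.61 (± 0.16 SE, adjusted p 0.0213 in edgeR) and Ehd1 of 0.22 (± 0.06 SE, adjusted p 0.0235 in edgeR). The call of Ehd3 was not kept without Srrm2+/- replicate 1 or 3 or WT replicate 2, nor that of Ehd1 without any of these or WT replicate 1.

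The exception in direction was Pacsin2, whose F-BAR protein bends the membrane at caveolae. Pacsin2 (ENSMUSG00000016664) fell from 25.5, 27.5 and 32.0 CPM in WT to 12.7, 15.3 and 16.2 CPM in Srrm2+/-. The groups did not overlap, and the log2 fold change was -0.94 (± 0.11 SE, adjusted p 0.000290 in edgeR). Its muscle-enriched relative Pacsin3 rose slightly, with a log2 fold change of 0.33 (± 0.06 SE, adjusted p 0.00401 in edgeR). Pacsin1, Ror1 (a receptor that binds caveolar coat proteins) and Cavin4 (the muscle cavin) did not pass the threshold, with log2 fold changes of 0.32 (SE 0.20), 0.54 (SE 0.23) and -0.37 (SE 0.21). Cav3 was not tested, having 3 counts in Srrm2+/- replicate 3 and 0 counts in the other libraries.

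**Figure D2:**
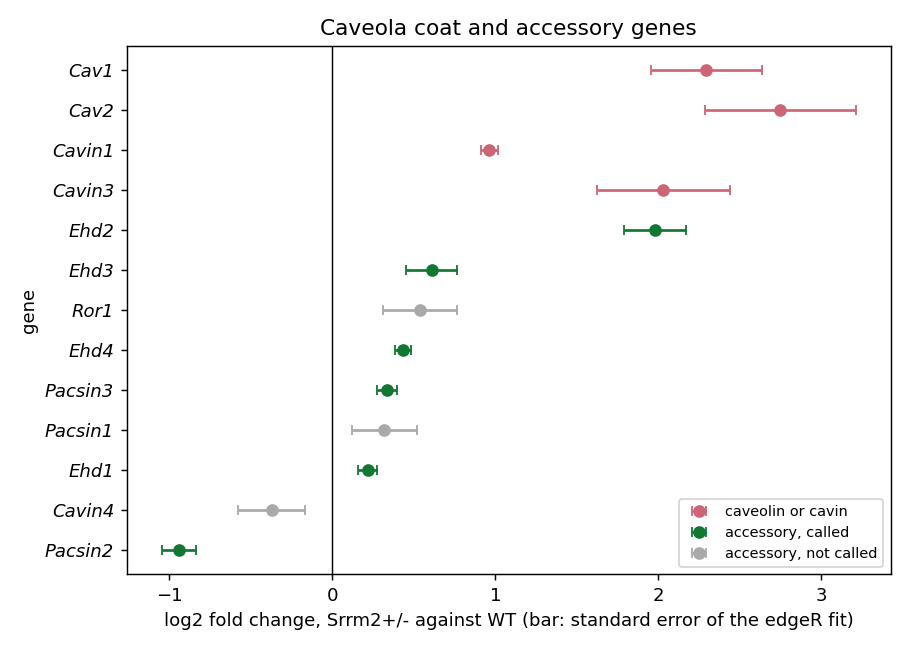
Log2 fold change between Srrm2+/- and WT (points, with standard errors of the edgeR fit as bars) for the caveolin and cavin genes that passed the filter and for 9 accessory genes. Ehd2 at 1.98 lay near Cavin3 at 2.03, whereas Pacsin2 at -0.94 lay on the other side of 0.

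Proteins that are found in caveolae or act on them made up the next list. Of 24 genes, 22 were tested, with a median log2 fold change of 0.20. Of the 22, 9 were called higher and 4 lower, beside 13.6% and 11.7% of all genes tested. The largest change among listed genes whose mean log2 CPM reached 1 was that of Egfr, a growth factor receptor. Egfr was at 4.97, 4.60 and 5.23 CPM in WT cells and 18.2, 20.7 and 18.1 CPM in Srrm2+/-, a log2 fold change of 1.94 (± 0.08 SE, adjusted p 1.45e-06 in edgeR). Nos3, the nitric oxide synthase that CAV1 inhibits in endothelium, fell by 0.70 on the log2 scale (± 0.12 SE, adjusted p 0.00320 in edgeR). Prkca, a protein kinase C that CAVIN2 binds, fell by 0.69 (± 0.16 SE, adjusted p 0.0123 in edgeR). Prkcd, whose product CAVIN3 binds, rose by 0.27 on the same scale (± 0.06 SE, adjusted p 0.0151 in edgeR), and its call was not kept without Srrm2+/- replicate 3. Src, which phosphorylates CAV1, rose by 0.25 (± 0.06 SE, adjusted p 0.0167 in edgeR). That call was not kept in 3 fits, which left out Srrm2+/- replicate 1, WT replicate 2 or WT replicate 3. Prkcd and Src are named for these links, after their values were seen.

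Among 14 genes of other membrane-domain proteins (flotillins, stomatins, MAL proteins, tetraspanins and others), 13 were tested, with a median log2 fold change of 0.0288. In edgeR 6 were called higher and 0 lower, beside 13.6% and 11.7% of all genes tested. DESeq2 and limma voom gave the same counts for the list. At an unadjusted p under 0.05 in edgeR, 6 were higher and 1 lower. The flotillins scaffold rafts without caveolins. Flot2 overlapped between the groups and was not called in any fit (log2 fold change 0.0288 ± 0.07 SE, adjusted p 0.804 in edgeR). It is named after its value was seen. Flot1 rose by 0.29 (± 0.07 SE, adjusted p 0.0161 in edgeR), a call not kept without Srrm2+/- replicate 1 or 3 or WT replicate 2. Anxa2, a membrane-binding annexin, was at 4.69, 3.93 and 5.13 CPM in WT cells and 40.9, 41.1 and 40.4 CPM in Srrm2+/-. That was the largest log2 fold change of the list, 3.16 (± 0.09 SE, adjusted p 1.32e-07 in edgeR). Mal2, a raft protein of apical transport, rose by 1.13 (± 0.13 SE, adjusted p 0.000370 in edgeR). Leaving out Srrm2+/- replicate 1 reduced the count of calls on the list from 6 to 2, and leaving out WT replicate 3 to 3. Calls were not all higher in every fit. There were 3 higher and 1 lower without Srrm2+/- replicate 3, and 5 higher and 1 lower without WT replicate 1.

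Caveolins bind cholesterol, and genes of its uptake, transport and synthesis moved in both directions. Of 16 tested, with a median log2 fold change of 0.12, 6 were called higher and 5 lower, beside 13.6% and 11.7% of all genes tested. The exporters Abcg1 and Abca1 fell, by 0.89 (± 0.13 SE, adjusted p 0.00126 in edgeR) and 0.71 (± 0.06 SE, adjusted p 5.05e-05 in edgeR) on the log2 scale.

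Clathrin-coated pits, the other main coat at the plasma membrane, were taken for comparison. All 24 listed genes were tested, of which 7 were called higher and 3 lower, beside 13.6% and 11.7% of all genes tested. The list had a median log2 fold change of 0.0396 and 1 call past a log2 fold limit of 1 in either direction. The clathrin heavy chain gene Cltc was at 0.0434 (± 0.04 SE, adjusted p 0.528 in edgeR) and is named as the main coat protein after its value was seen. Among called genes whose mean log2 CPM reached 1, the largest changes were those of Bin1, a membrane-bending protein that rose by 1.45 (± 0.15 SE, adjusted p 0.000187 in edgeR), of the light chain gene Cltb, which fell by 0.47 (± 0.06 SE, adjusted p 0.000730 in edgeR), and of the adaptor gene Ap2b1, which rose by 0.35 (± 0.05 SE, adjusted p 0.00183 in edgeR). The difference between this list and the caveola accessory list was not tested.

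Since Cav1 and Cav2 are adjacent, the genes around each member were compared. Within 250 kb of the 5 genes lay 44 other protein-coding genes, of which 32 were tested. Among the 32, 7 were called higher and 3 lower, beside 13.6% and 11.7% of all genes tested. The median log2 fold change of the 32 was 0.0601. The caveolin pair has 2 such neighbours, and both were called higher. Tes (ENSMUSG00000029552), which encodes a LIM-domain protein of focal adhesions and ends 175.357 kb before Cav2, was at 9.05, 7.49 and 7.79 CPM in WT cells and 18.9, 20.1 and 21.7 CPM in Srrm2+/-. That gave a log2 fold change of 1.32 (± 0.09 SE, adjusted p 1.33e-05 in edgeR). Met, the receptor of hepatocyte growth factor, 122.348 kb beyond Cav1, had a log2 fold change of 0.28 (± 0.07 SE, adjusted p 0.0211 in edgeR). Without WT replicate 3 or any of the Srrm2+/- libraries the call of Met was not kept.

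Around Cavin1, 20 neighbours were tested, with 1 called higher and 3 lower and a range from -0.46 to 0.34. The nearest, Stat3, was at 96.5 ± 3.22 CPM in WT cells and 93.3 ± 2.95 CPM in Srrm2+/- (log2 fold change -0.0486 ± 0.04 SE, adjusted p 0.458 in edgeR). Of the called neighbours, Stat5a had a log2 fold change of -0.46 (± 0.12 SE, adjusted p 0.0197 in edgeR), Ezh1 of -0.26 (± 0.06 SE, adjusted p 0.0112 in edgeR), Psmc3ip of -0.19 (± 0.05 SE, adjusted p 0.0225 in edgeR) and Stat5b of 0.28 (± 0.08 SE, adjusted p 0.0374 in edgeR). Around Cavin3, Apbb1, Trim3 and Rrp8 were called higher, with log2 fold changes between 0.27 and 0.34, among 8 tested, while the nearest of these, Smpd1, did not pass the threshold (0.25 ± 0.09 SE, adjusted p 0.0645 in edgeR). Of the 2 neighbours of Cavin2, Nabp1 was at 0.16 (± 0.04 SE, adjusted p 0.0267 in edgeR) and Tmeff2 at 0.57 (± 0.31 SE, adjusted p 0.224 in edgeR). Leaving out any Srrm2+/- library reduced the calls among neighbours from 10 to 6, and 6 of the 10 (Met, Stat5a, Stat5b, Psmc3ip, Nabp1 and Trim3) were lost in at least 1 fit that left out a library, while Tes, Ezh1, Apbb1 and Rrp8 were called in every alternative run. The call of Stat5b was also lost in DESeq2, with the filter of 1 count and with the replicate block.

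**Figure D3:**
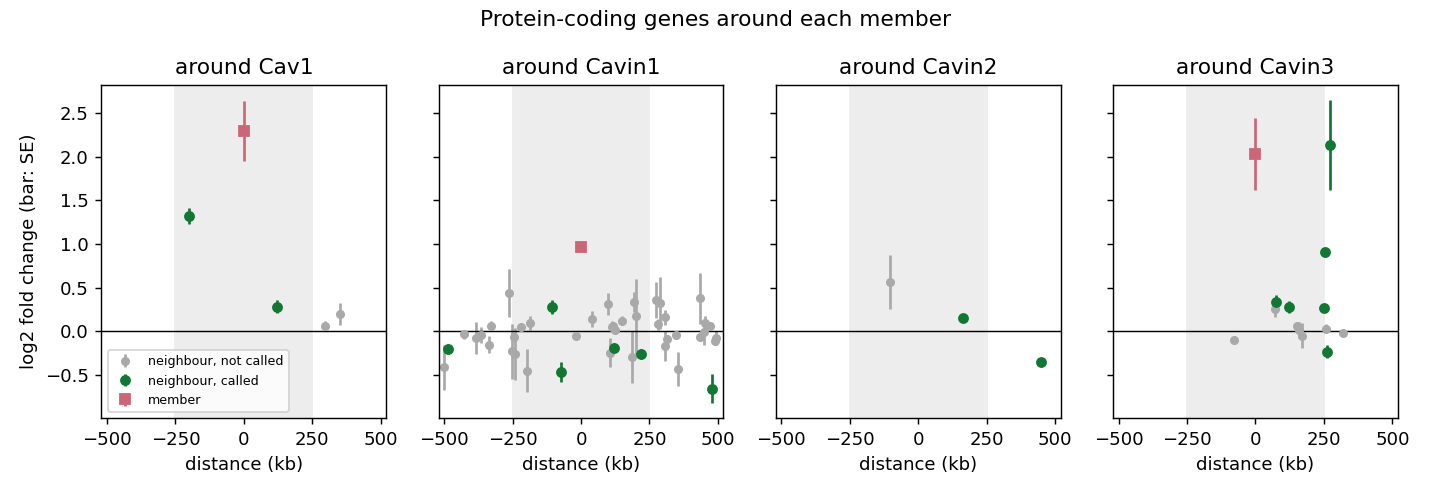
Log2 fold change (bars show the SE of the edgeR fit) of protein-coding genes against their distance in kilobases from Cav1, Cavin1, Cavin2 and Cavin3, with green for called and grey for not called neighbours, red squares for the members and shading for the 250 kb window. Within the shaded windows Tes at 1.32 was the highest neighbour, beyond them the highest was at 2.13 near Cavin3, and the Cavin1 neighbours inside the 250 kb window lay between -0.46 and 0.34.

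The genes with the most similar profiles were sought among 11003 other protein-coding genes whose mean log2 CPM reached 1. Likeness was the root mean square difference of log2 CPM over the 6 libraries after the WT mean of each gene was subtracted. Log2 CPM was taken with an offset of 2 counts, which shrinks the contrast of genes with low counts such as Cav2. For Cav1 the closest were Colec12, a scavenger receptor (difference 0.17), Tent5a (0.20) and Col4a5, a basement membrane collagen chain (0.27). Cav2 differed from Cav1 by 0.23, less than from Tent5a (0.28), Colec12 (0.29) and Nt5e (0.31), the genes outside the family closest to it. The caveolins were not held to the limit on mean log2 CPM set for the other genes, and did not reach it. Colec12 was at 4.79, 1.99 and 2.97 CPM in WT cells and 16.3, 18.3 and 17.6 CPM in Srrm2+/-. Like both caveolins, it was highest among WT libraries in replicate 1, a likeness that the search itself favours. Tent5a showed the same order of replicate 1 above the others, with 1.30, 0.692 and 0.691 CPM in WT.

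Cavin1, with larger counts, had closer counterparts. They were Pard6b, a cell polarity gene (0.0258), Mpdz, a PDZ scaffold gene (0.0458), and Myo1c, an unconventional myosin gene (0.0471). Myo1c was at 55.4 ± 1.43 CPM in WT cells and 113 ± 4.04 CPM in Srrm2+/- (SD, n = 3 each). Cavin1 differed by 1.09 from Cav1 and by 1.17 from Cav2. For Cavin3 the closest were Adgrl2 (0.19), Sgce (0.25) and Myo5b (0.29), each highest among WT libraries in replicate 3, as Cavin3 was. The profiles hold the contrast itself and the WT replicates, so a shared highest WT replicate is favoured by the search. These differences describe the libraries and were not tested.

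**Figure D4:**
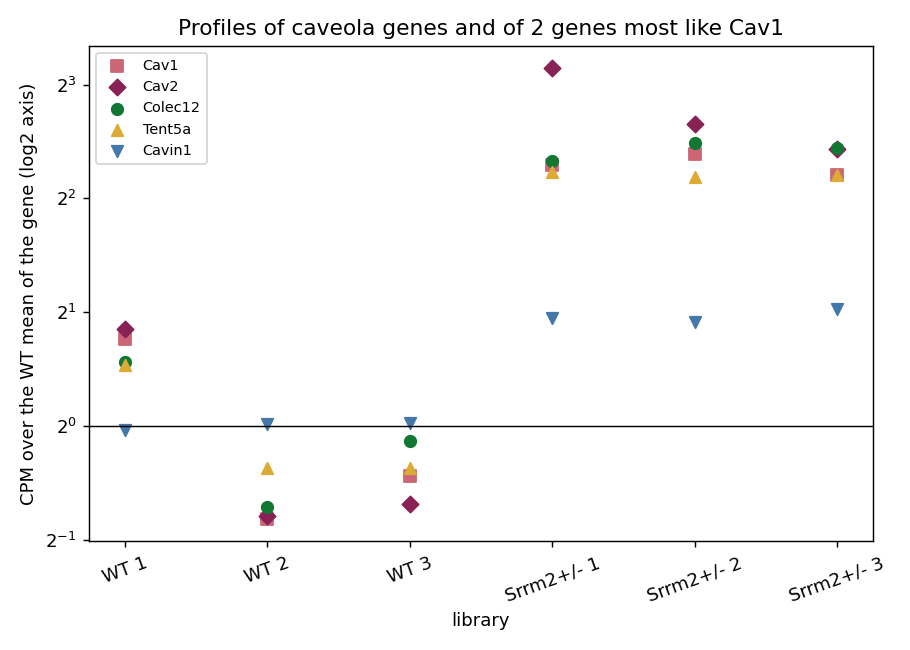
CPM of each gene divided by its WT mean (log2 axis) in the 6 libraries for Cav1, Cav2, Cavin1, Colec12 and Tent5a. Colec12 and Tent5a were picked for likeness over these same libraries. Cav1, Cav2, Colec12 and Tent5a were highest among WT libraries in replicate 1, whereas Cavin1 was nearly level within each line and lower in ratio in every Srrm2+/- library.

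Markers of other cell types were measured because caveola genes are abundant in several differentiated cells. Each list is given by the range of its summed level, and the genes that carry most of a sum are named after their values were seen. Marker calls stand beside 13.6% called higher and 11.7% called lower over all genes tested. The 10 stem cell markers summed to between 5364 and 5561 CPM in WT cells and between 4684 and 4782 CPM in Srrm2+/-, with 6 markers called lower and 1 higher. Of these the call of Dppa5a was not kept with the replicate block or without Srrm2+/- replicate 2 or 3 or WT replicate 2 or 3. Both lines thus expressed the markers of their label. The 10 fibroblast markers summed to 4.18 to 4.56 CPM in WT cells and 7.66 to 11.5 CPM in Srrm2+/-. The 4 called higher, of 7 tested, were the collagen genes Col1a1, Col1a2 and Col3a1 and the matrix gene Postn, while Fap, Pdgfra and Thy1 were not called and Lum did not exceed 3 counts in any library.

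The endothelial sum was mostly that of 1 gene. The 10 markers summed to 99.5 to 103 CPM in WT cells and 74.3 to 79.3 CPM in Srrm2+/-, of which Pecam1, an adhesion molecule, gave 88.8 ± 2.00 and 65.8 ± 2.54 CPM. Pecam1, Tek and Vwf were called lower, whereas Kdr (log2 fold change 3.34, SE 0.35) and Plvap (0.84) were called higher, the call of Plvap not without Srrm2+/- replicate 1. Kdr had 9, 3 and 5 counts in WT cells, near the floor, and 78, 71 and 62 counts in Srrm2+/-. Tie1 and Cldn5 were not called, Cdh5 and Emcn did not exceed 3 counts and Erg was at 0 in all libraries, so the list had no common direction. Likewise the adipocyte sum (8 markers, 8.01 to 8.72 CPM in WT cells and 10.4 to 10.7 CPM in Srrm2+/-) was mostly that of Lpl, a lipase gene, at 7.96 ± 0.582 and 9.74 ± 0.243 CPM. Lpl was the 1 marker called higher of 2 tested, and that call was lost in 6 of 14 alternatives, which were the replicate block and leaving out any Srrm2+/- library or WT replicate 2 or 3. Adipoq, Plin1 and Lep were at 0 in all libraries.

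Muscle markers (10) summed to 41.4 to 43.6 CPM in WT cells and 53.3 to 56.5 CPM in Srrm2+/-. The 3 called higher, of 5 tested, were Cnn1 and Smtn, genes of smooth muscle, and Des, an intermediate filament gene, while Mylpf and Mb were not called and Myod1 and Ckm were at 0. The primitive endoderm sum (8 markers, 3.14 to 4.50 and 17.8 to 23.8 CPM) was again carried by 1 gene, Col4a1, a basement membrane collagen gene at 1.71 ± 0.687 CPM in WT cells and 18.1 ± 2.60 CPM in Srrm2+/-. Dab2 was the other marker called higher of 5 tested. The transcription factor genes Gata4 (log2 fold change -0.0038), Gata6 (0.95) and Sox7 (-0.77) were not called, Sox17 and Foxa2 were not tested and Afp was at 0. Trophoblast markers (8) summed to 5.25 to 5.60 and 10.1 to 11.2 CPM, and most of that difference was Krt7, a keratin gene at 2.81 ± 0.198 and 7.23 ± 0.755 CPM. The second of 2 called higher among 5 tested, Eomes, lost its call in 8 of 13 alternatives, which were DESeq2, the filter of 1 count, the replicate block and leaving out WT replicate 1 or 3 or any Srrm2+/- library. Ascl2, Gata3 and Elf5 were not called, and Tpbpa was at 0. Kdr is on both the endothelial and the caveola-associated list, Pdgfra on the fibroblast and the caveola-associated list and Thy1 on the fibroblast and the membrane-domain list. The part of these other cell types in the caveolin and cavin values was not tested.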

How the data were processed

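The authors pseudo-aligned paired-end total RNA reads (TruSeq Stranded kit) with kallisto 0.46.1 to the GENCODE M24 mouse transcriptome (GRCm38) and deposited raw estimated counts by gene. How kallisto was set for strand is not given in the sources used here. All replicate pairs differed beyond counting noise (chi-square divided by its degrees of freedom from 14.7 up).

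Estimated counts were rounded, and added spike-ins were not used. Symbols, positions and lengths came from GENCODE M21 on the same build (42156 of 42450 identifiers matched). Genes past filterByExpr (minimum count 10, minimum total 15) were tested with edgeR 4.0.16 (TMM, glmQLFit and glmQLFTest, two-sided, genotype as the sole term, all 6 libraries), with Benjamini-Hochberg adjustment over all genes tested and calls at an adjusted p under 0.05. A standard error is the log2 fold change divided by the square root of F. Library totals limit the precision of low counts. A count of 3 per library was used as floor. Alternatives were RLE and upper quartile normalisation, DESeq2 1.42.0, limma voom 3.58.1, 2 other filters, the replicate block, each library left out, small RNA, rRNA and mitochondrial genes removed, a fold limit, other transcript lengths and a 500 kb window. Scripts were tested on simulated data.

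The members and lists were chosen with earlier results of these data known. Named were Srrm2, the 5 genes, every accessory gene, of each other list the 3 called genes with the largest change and a mean log2 CPM of at least 1, neighbours within 250 kb, of which those called and the nearest are given, and the 3 genes most like each member. The value of 1 gene named by this rule is not reported here. The promoter table held entries for 4 of the 5 genes.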

Additional observations from a re-analysis of the deposited data

How the results depend on the processing

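In every alternative that gave a value, direction was kept for Srrm2, Cav1, Cav2, Cavin1 and Cavin3. Without WT replicate 1 the log2 fold change of Cav1 moved to 2.91 and that of Cav2 to 3.47, and without WT replicate 3 that of Cavin3 moved to 2.54. For this Cav2 value, the WT libraries left lay at the floor of 3 counts. Leaving out 1 library gave 2.01 to 2.91 for Cav1, 2.47 to 3.47 for Cav2, 0.93 to 0.99 for Cavin1, 1.82 to 2.54 for Cavin3 and -0.72 to -0.65 for Srrm2. Cavin2 has no fold change, since it failed the filter and lay at or under the floor. Requiring 1 CPM in every library of a group left Cav1 and Cavin1 only. A log2 fold limit of 1 in either direction left 1153 of 4781 called genes (813 higher, 340 lower), 1 of 6 accessory, 3 of 13 caveola-associated and 1 of 10 clathrin coat genes.

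The ratio of Cavin1 to the caveolins per kilobase in Srrm2+/- was 2.96 with the median transcript length, 12.2 with the longest transcript and 14.8 with merged exons, since the lengths differ. A 500 kb window gave 16 called neighbours of 65 tested, beside 25.3% of all genes tested. Within 250 kb, leaving out 1 library gave 6 to 8 calls in place of 10. With 1 library left out, and so fewer samples, raft calls ranged from 2 to 6, accessory calls from 4 to 6, caveola-associated from 11 to 13, cholesterol from 9 to 12, clathrin from 7 to 10 and calls over all genes from 3515 to 4122. For the low raft counts (2 without Srrm2+/- replicate 1, 3 without WT replicate 3), the cause was not tested.

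WT and Srrm2+/- replicates of 1 number showed no shared deviation (correlation -0.0285, -0.0337 and -0.0300), and were not taken as paired. With replicate number as a block, 4166 genes were called (2281 higher, 1885 lower), and the log2 fold changes were 2.38 for Cav1, 2.82 for Cav2, 0.96 for Cavin1 and 2.08 for Cavin3. The block left 6 accessory, 12 caveola-associated, 10 cholesterol, 9 clathrin, 5 raft and 9 neighbouring genes called. At this depth levels under 3 counts, as of Cavin2, cannot be compared.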
